A study of Mus musculus with 2 samples.

Results

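In nucleoplasmic RNA of mouse macrophages, 31 protein-coding genes had most of their RNA assigned to isoforms that the annotation classes as retained intron, a transcript of a coding locus that keeps intron sequence. The genes were selected on these values. Each has at least 1 transcript annotated as protein-coding, a summed level of at least 10 TPM (a length-corrected share of all transcripts, scaled to the same total in each library) and at least 80% of it in retained-intron isoforms, in both libraries. They are 31 of 2928 coding genes that reached 10 TPM in both libraries and of 21901 coding genes in all. Genes of 10 symbol families, such as ribosomal proteins and SR splicing factors, and 2 further symbols were set aside, which removed Rps16, Rpl5 and Cd83. Before that step 34 of the 2928 genes, 1.16%, met both thresholds, and since the rule used these values no test of them was made.

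The data are rRNA-depleted total RNA from bone marrow-derived macrophages, primary cells of the mouse strain C57BL/6J, exposed to 100 ng/ml lipid A for 50 minutes. Lipid A is the part of bacterial endotoxin that the receptor TLR4 of these cells senses. The single group held 2 biological replicates, with no further allele or agent in the labels, which leave age and sex as not collected and point both libraries to the same donor entry. The labels describe the fraction as nucleoplasmic in one field and as nuclear in another. The libraries were made from 500 ng of RNA in replicate 1 and from 1 µg in replicate 2, and the tables held 10395300 and 20515400 expected counts. No untreated library and no cytoplasmic fraction was analysed here, so nothing below is a response to lipid A or a nuclear enrichment. All 10 macrophage markers examined, such as Csf1r and Lyz2, were at 23.7 TPM or more in each library, and no marker of T cells, B cells, neutrophils, erythroid cells or fibroblasts was above 1.67 TPM.

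Introns are removed by the spliceosome, which reads a 5′ splice site that usually begins with GT and a 3′ splice site that ends with AG. When an intron is kept, the transcript often meets a stop codon inside it, and such RNA is either held in the nucleus until it is spliced or degraded, or is exported and exposed to nonsense-mediated decay. In macrophages, nuclear transcripts with unspliced introns are a familiar feature of genes switched on by bacterial products. Annotated retained-intron transcripts are of several kinds. Some span an intron from splice site to splice site, and others only begin or end inside one. The class name alone thus does not show that a whole intron was kept. Reads of nuclear transcripts that are still to be spliced cannot be told here from reads of a finished isoform of this class.

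The introns below show the range among the genes. Each lies whole inside the retained-intron isoform of its gene with the highest mean TPM, called the highest isoform below. The introns are given 5′ to 3′ from the GENCODE M21 transcript sequences on the mm10 build. Capitals mark the first and last pair of bases and the first stop codon in the frame of the upstream coding exon, where there is one. They are intron 6 of Pirb at chr7:3716891-3717117, intron 10 of Ncl at chr1:86352320-86352509, introns 4 and 5 of Plekhj1 at chr10:80796655-80796731 and chr10:80796523-80796590, all 4 on the minus strand, and intron 3 of Prelid1 at chr13:55324445-55324526 on the plus strand. All 5 lie within the coding sequence.

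Pirb intron 6: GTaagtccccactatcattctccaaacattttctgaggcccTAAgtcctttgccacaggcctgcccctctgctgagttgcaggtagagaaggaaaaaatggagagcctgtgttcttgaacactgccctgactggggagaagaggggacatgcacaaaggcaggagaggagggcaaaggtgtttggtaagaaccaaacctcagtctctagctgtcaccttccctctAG
Ncl intron 10: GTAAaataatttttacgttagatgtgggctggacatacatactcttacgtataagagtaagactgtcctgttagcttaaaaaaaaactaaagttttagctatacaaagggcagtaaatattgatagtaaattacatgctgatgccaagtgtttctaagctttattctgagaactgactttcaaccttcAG
Plekhj1 intron 4: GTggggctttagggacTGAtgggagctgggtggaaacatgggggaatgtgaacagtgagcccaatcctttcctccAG
Plekhj1 intron 5: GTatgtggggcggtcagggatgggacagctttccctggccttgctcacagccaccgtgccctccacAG
Prelid1 intron 3: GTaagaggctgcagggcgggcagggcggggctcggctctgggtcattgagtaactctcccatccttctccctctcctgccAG

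The Pirb intron, of 227 nt, meets a stop in frame at base 42, and the Ncl intron, of 190 nt, at base 2, so that its stop overlaps the splice site itself. Intron 4 of Plekhj1 is 77 nt long with a stop at base 17. The last intron of Plekhj1, of 68 nt, and the Prelid1 intron, of 82 nt, hold no stop in frame. The Ncl intron has a GC content of 32.6%, against 64.7% and 64.6% in the pair without a stop.

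The junctions at the 5′ end of other kept introns are shown because they differ in how closely they match the consensus CAGGTAAGT. This consensus spans the last 3 exon bases and the first 6 intron bases. It is the most frequent base at each position over the kept introns of the other coding genes compared further below. Each line gives the last 10 exon bases and the first 20 intron bases, with the first 6 intron bases in capitals.

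Pirb intron 6: ctcatctcagGTAAGTccccactatcattc
Bbs10 intron 1: ccttagccagGTACCTcacttctcctgccc
Tmem132a intron 10: cccaaagcagGTGATGgccgggggtgagag
Il15ra intron 2: aagtgcatcaGTAAGTagccagtctccaca
Stk25 intron 5: gatatcaaagGTCCTGcggggtgggcttgg
9030025P20Rik intron 7: gtttttcctgGCAAGTccccccttactatg

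Pirb matches the consensus at 9 of 9 bases. Bbs10 and 9030025P20Rik match at 7, Tmem132a and Il15ra at 6, and Stk25 at 4, the fewest among the genes. The intron of 9030025P20Rik begins with GC, a known minor variant of the GT start, and it was the only such intron among the 22 kept introns described further below.

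The highest single level, that of Lilrb4a, lay among the immune receptors and interferon-inducible genes. The median of these 6 genes was 39.6 TPM in replicate 1 and 31.6 TPM in replicate 2. Lilrb4a encodes an inhibitory immunoglobulin-like receptor of myeloid cells and lies at chr10:51490956-51496611 on the plus strand. Its level was 2485 TPM in replicate 1 and 1386 TPM in replicate 2, with 97.2% and 98.7% in its 9 retained-intron isoforms. Only 1.64 and 0.73 TPM were left for the 4 coding isoforms of Lilrb4a. Its highest isoform, Lilrb4a-206, held 1106 and 537 TPM and begins inside an intron. The next, Lilrb4a-209, held 685 and 378 TPM, and isoforms that span a whole intron held 54.2% and 60.7% of the retained-intron TPM of Lilrb4a. The gene shares its locus with Gm49339, a coding gene on the same strand at 268 and 186 TPM that covers all 1279 bases of Lilrb4a-206, so the division of reads between the pair is uncertain.

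Pirb, an inhibitory receptor that binds MHC class I molecules, stood at 267 and 159 TPM, with shares of 80.1% and 82.3%. Its single coding isoform held 53.0 and 28.0 TPM, and each of its 4 retained-intron isoforms spans a whole intron. H2-Q7, which encodes a nonclassical MHC class I molecule, was at 51.5 and 42.8 TPM with shares of 89.8% and 84.7%. The highest isoform of H2-Q7 spans 4 whole introns, more than in any other of the 31 genes. Il15ra, the receptor chain that binds and presents interleukin-15, was at 15.4 and 14.3 TPM with 88.0% and 83.1%. Il11ra1, the interleukin-11 receptor chain, was at 27.7 and 16.9 TPM with 86.9% and 80.7%. Ifi27, an interferon-inducible gene, was at 19.7 and 20.5 TPM with 95.5% and 83.5%. These 6 genes thus ranged from 14.3 to 2485 TPM, and 4 of the 6 kept a share of at least 80% in both libraries in a second quantification of the same reads.

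**Figure D1:**
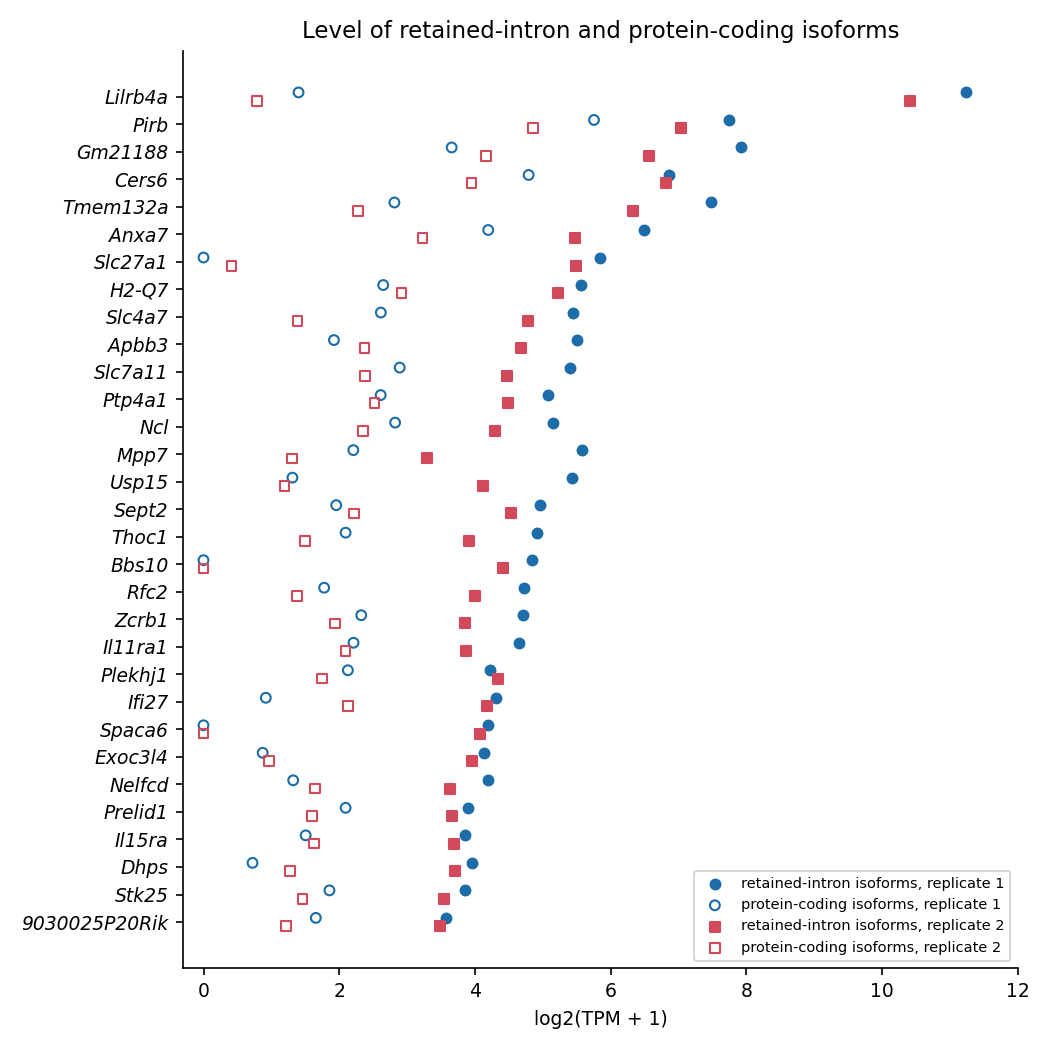
Level of the retained-intron isoforms (filled) and of the protein-coding isoforms (open) of each of the 31 genes in replicate 1 (circles) and replicate 2 (squares), on the log2(TPM + 1) scale. In every gene the filled symbol of a library lies to the right of its open symbol, as the selection required, and Lilrb4a stands far to the right of the others at 2485 and 1386 TPM in all.

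The 6 genes of transport and lipid metabolism had a median of 54.0 TPM in replicate 1 and 38.8 TPM in replicate 2. Cers6, a ceramide synthase, was at 142 and 126 TPM, with 81.1% and 88.5% of TPM in retained-intron isoforms. In expected counts, which are not divided by length, the share of Cers6 was 37.3% and 51.5%, the lowest of the 31 genes in replicate 1. Its highest isoform, Cers6-207, is 1283 nt long against a median of 4159 nt for its coding isoforms. Slc4a7, a sodium bicarbonate cotransporter, was at 51.6 and 32.8 TPM with 82.6% and 80.9% of TPM but 50.0% and 49.7% of counts. Its highest isoform is 679 nt long, and its coding isoform is 8132 nt. A short isoform needs fewer reads than a long one for the same TPM, and for Cers6 and Slc4a7 the call of dominance thus depends on the length correction.

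Slc27a1, a transporter of long-chain fatty acids, was at 56.4 and 44.7 TPM with 100.0% and 98.6%, and its counts gave 100.0% and 99.7%. The second quantification gave 84.9% and 91.2% for Slc27a1. Slc7a11, the cystine and glutamate antiporter, was at 47.9 and 25.4 TPM with 86.6% and 83.4%. Anxa7, a calcium-dependent membrane-binding annexin, was at 106 and 51.8 TPM with 83.6% and 83.9%. Anxa7 spread its RNA over 6 retained-intron isoforms. The highest by mean TPM, Anxa7-208, held 18.3% and 19.2% of the gene, and in replicate 1 Anxa7-204 was higher at 19.9%. Prelid1, which carries phosphatidic acid between mitochondrial membranes, was at 17.1 and 13.7 TPM with 80.9% and 85.2%, all in 1 isoform that keeps the 82 nt intron shown above. Of these 6 genes, only Slc27a1 kept at least 80% in both libraries in counts.

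The genes of RNA handling, transcription and replication lay at middle levels, between 13.6 and 40.7 TPM. Ncl encodes nucleolin, an abundant RNA-binding protein of the nucleolus. It was at 40.7 and 22.8 TPM with 85.1% and 81.9%. Its isoform Ncl-202 held 69.8% and 58.8% of the gene and spans introns 9 and 10 of 13, which have GC contents of 32.5% and 32.6%. Another isoform, Ncl-206, contains the snoRNA gene Snora75 and held 2.10 and 1.34 TPM, and Snora75 itself is listed at 0 in both libraries. No other of the 31 genes had an annotated small RNA gene on its strand inside a retained-intron isoform.

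Thoc1, a subunit of the THO complex that couples transcription to mRNA export, was at 32.6 and 15.9 TPM with 89.96% and 88.6%. It has 11 annotated retained-intron isoforms, the most of the 31 genes, and 7 of them span a whole intron. Nelfcd, a subunit of the factor that pauses RNA polymerase II, was at 18.7 and 13.6 TPM with 92.0% and 83.7%. The second quantification gave 62.6% and 62.4% for Nelfcd. Rfc2, a subunit of the clamp loader of DNA replication, was at 29.6 and 17.3 TPM with 85.8% and 87.2%. Zcrb1, a protein of the minor spliceosome, was at 30.3 and 16.5 TPM with 83.3% and 81.2%. No retained-intron isoform of Rfc2 or Zcrb1 spans a whole intron.

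Among signalling and protein-modifying genes, Usp15 shows how far the class name can lie from a kept intron. Usp15 removes ubiquitin from proteins and was at 43.8 and 17.6 TPM with 96.6% and 92.7%. Its highest isoform, Usp15-208, has 16 intronic bases in 1587, and 99.0% of its 31-base words also occur in the coding isoforms of Usp15. None of its 8 retained-intron isoforms spans a whole intron. Ptp4a1, a tyrosine phosphatase, was at 38.0 and 26.2 TPM with 86.5% and 81.9%, and its highest isoform spans an intron of 1007 nt. Stk25, a kinase, was at 16.1 and 12.4 TPM with 83.7% and 85.9%, and isoforms spanning a whole intron held 78.5% and 82.2% of its retained-intron TPM. Dhps, which makes the hypusine residue of a translation factor, was at 15.2 and 13.4 TPM with 95.7% and 89.4%. Dhps rested on 71.0 and 229 expected counts, and its highest isoform on 8.95 and 14.0. The Wilson interval at the 95% level of its share in counts ran from 79.3% to 94.2% in replicate 1 and from 70.1% to 81.1% in replicate 2, which covers counting error only.

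The cytoskeletal, membrane and ciliary genes included several extremes. Tmem132a, a transmembrane protein, was at 184 and 83.6 TPM with 96.7% and 95.4%, all in 1 isoform that spans introns 9 and 10, of 368 and 412 nt. The isoform overlaps Slc15a3 on the opposite strand by 225 bases. Slc15a3 was at 189 and 154 TPM, and because the strand setting of the counting is not given in the sources used here, reads of that stretch cannot be told apart. Bbs10, a chaperonin-like protein needed to assemble the ciliary BBSome complex, was at 27.6 and 20.4 TPM with 100.0% in both libraries. Its coding isoform was listed at 0, and its retained-intron isoform is the unspliced copy of the coding transcript, whose only intron is 305 nt long. The second quantification gave 86.8% and 86.2% for Bbs10.

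Sept2, a septin that forms cytoskeletal filaments, was at 33.0 and 25.7 TPM with 91.3% and 85.8%. Its kept intron is the first and lies in the 5′ untranslated region. A second entry of the symbol Sept2 on the same strand, at 26.6 and 13.5 TPM, covers all 3310 bases of the highest isoform, so the division of reads between the entries is uncertain. Mpp7, a scaffold protein of cell polarity, was at 51.4 and 10.6 TPM with 91.2% and 82.9%. Apbb3, an adaptor that binds the amyloid precursor protein, was at 48.2 and 29.9 TPM with 92.2% and 82.7%. Plekhj1, which has a pleckstrin homology domain, was at 20.99 and 23.3 TPM with 83.9% and 82.8%. Exoc3l4, related to a subunit of the exocyst, was at 17.3 and 15.4 TPM with 95.2% and 93.8%. Spaca6, a sperm membrane protein needed for gamete fusion, was at 17.3 and 15.9 TPM with 100.0% and 99.4%. Its coding isoforms were listed at 0 in both libraries. The second quantification gave 88.7% and 85.8% for Spaca6, whose highest isoform rested on 21 and 88 expected counts. Gm21188, at 253 and 110 TPM with 95.4% and 84.7%, and 9030025P20Rik, at 13.0 and 11.6 TPM with 83.5% and 88.5%, are given here without a role.

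The levels of the 31 genes lay close to those of all coding genes at the same minimum. Their median was 33.0 TPM in replicate 1 and 20.5 in replicate 2, and over all 2928 coding genes it was 34.7 and 22.5. The median log2 ratio of replicate 2 to replicate 1 was -0.53 in the 31 genes, with a range of -2.27 to 0.15, and -0.61 over all. TPM has the same total in each library, and coding genes held 33.8% of it in replicate 1 and 19.2% in replicate 2. For a single gene, fewer cells with its RNA and less of it per cell cannot be told apart in bulk RNA. With 1 group no difference between the libraries was tested. Of the 2928 genes, 1.71% lay over 2-fold from the median ratio, and 1 of the 31 did. That gene was Mpp7, whose log2 ratio was -2.27. The share was higher in replicate 1 in 22 of the 31 genes, and in 862 of the 2118 genes with an annotated retained-intron isoform, 40.7%. The rule used the shares of both libraries, so nothing is read from this count. The share of Ifi27 was 95.5% in replicate 1 and 83.5% in replicate 2 and that of Gm21188 95.4% and 84.7%, the widest gaps downward, whereas that of Cers6 was 7.37 percentage points higher in replicate 2.

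**Figure D2:**
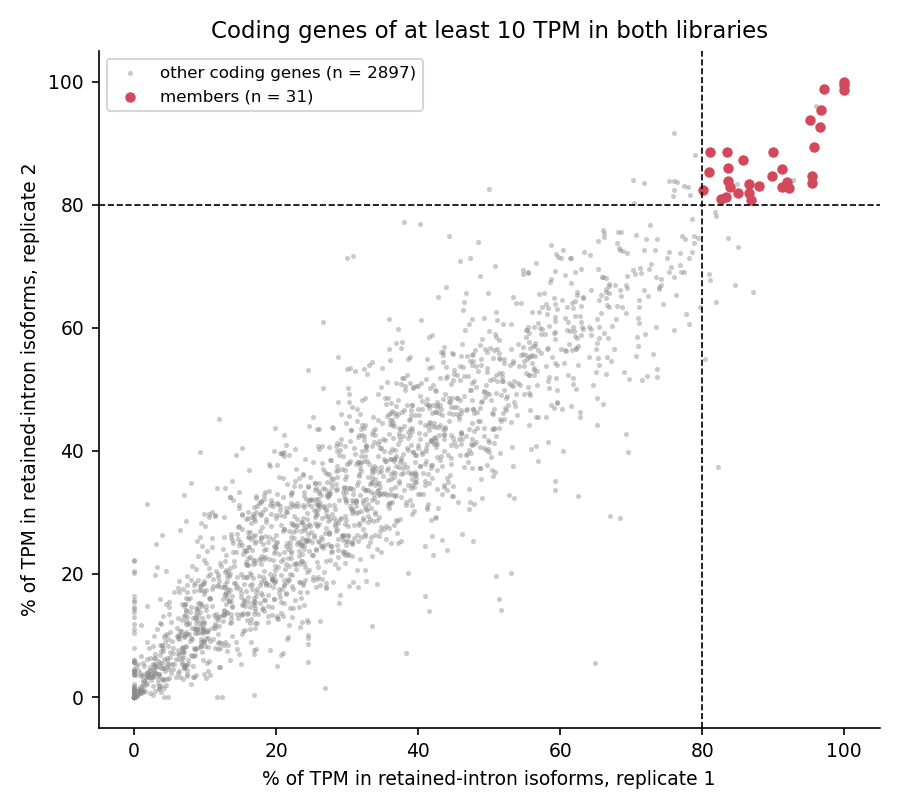
Percent of TPM in retained-intron isoforms in replicate 1 (horizontal axis) and replicate 2 (vertical axis) for coding genes of at least 10 TPM in both libraries, with the 31 genes in red, the 2897 others in grey and dashed lines at 80%. The grey cloud runs continuously up to the lines, and its 3 points inside the upper right corner are Rps16, Rpl5 and Cd83.

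The threshold cuts a continuous distribution. Over all 2928 genes the median share was 18.2% in replicate 1 and 21.2% in replicate 2. At least 50% in both libraries was reached by 339 of them, 11.6%, which is 16% of the 2118 genes with an annotated retained-intron isoform. Pirb, Il11ra1, Slc4a7, Prelid1 and Cers6 were the genes just inside the share threshold. Just outside it lay Ddhd1 with 81.8% and 78.9%, Prag1 with 82.0% and 78.2%, Pfkp with 78.1% and 82.9%, Zc3h7a with 78.6% and 77.7%, and Tap2 with 77.4% and 83.1%. The lowest levels inside were those of Mpp7, 9030025P20Rik, Stk25, Dhps and Nelfcd. Just below 10 TPM lay Dctn6, Pkmyt1, Aida, 9130230L23Rik and Gstt2, whose lower values were 8.44, 8.42, 8.04, 8.01 and 7.85 TPM. In all, 20 genes met the share in 1 library only, Ddhd1, Prag1, Pfkp and Tap2 included.

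The share depended on how the isoforms were weighed. In expected counts its median over the 31 genes was 84.8% in replicate 1 and 78.1% in replicate 2, against 89.8% and 84.7% in TPM. By counts 13 of the 31 reached 80% in both libraries and 29 reached 50%, while 0.854% of the 2928 genes reached 80%. In the second quantification, made from the reads, the median was 85.8% and 81.8%. Its levels differed more between the libraries. The median level of the 31 genes there was 29.3 and 5.66 TPM in replicates 1 and 2, and over all 2928 genes it was 29.8 and 6.96 TPM. By this quantification Lilrb4a stood at 1967 and 377 TPM. There 18 of the 31 reached 80% and 31 of 31 reached 50%, and 0.99% of the 2928 genes reached 80%. Because the members were selected on high values of the first measure and all measures come from the same reads, these counts describe the spread between methods. In 9 genes the share was at least 80% by all the measures in both libraries, and in 9 it was so in TPM of the first tables alone. By the mean of the libraries, the highest shares in the second quantification were those of Lilrb4a, 99.1% and 99.5%, and Usp15, 95.7% and 94.8%. In replicate 1 alone Ifi27 stood above Usp15, at 96.8%, and it was at 81.8% in replicate 2. The lowest share in a single library was that of Apbb3 in replicate 1, at 61.8%.

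**Figure D3:**
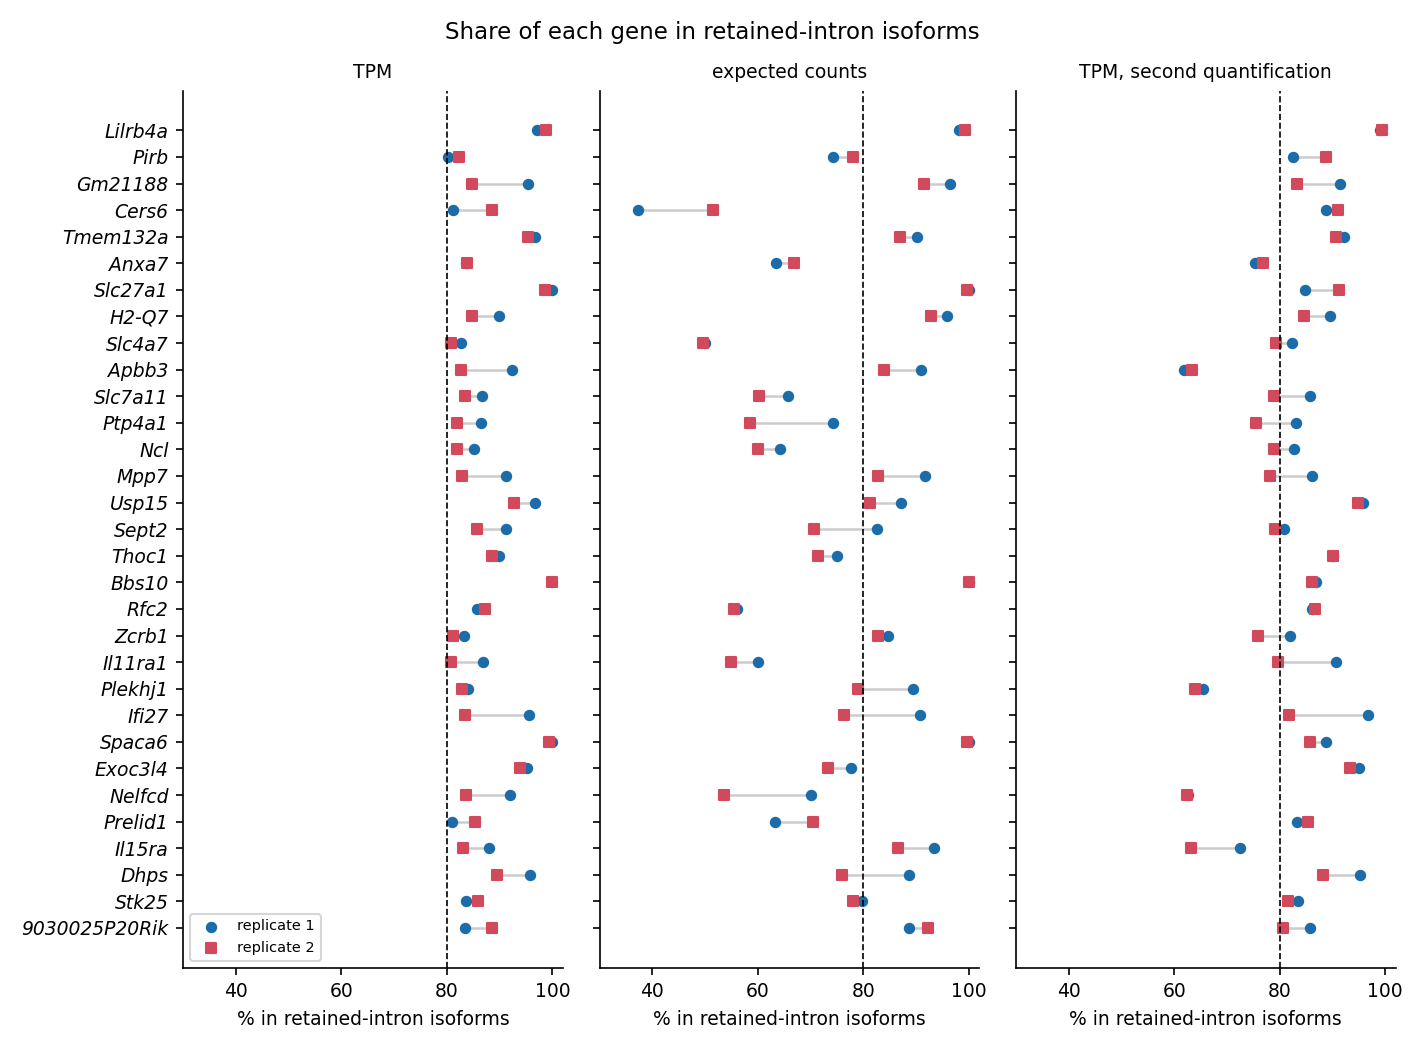
Percent of each gene in retained-intron isoforms by TPM, by expected counts and by TPM of the second quantification, with replicate 1 as circles, replicate 2 as squares and a dashed line at 80%. By selection all points of the left panel lie above the line, while Cers6 falls to 37.3% and 51.5% in counts and Apbb3 to 61.8% and 63.4% in the second quantification.

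The make-up of the isoforms divided the genes. In 16 of the 31, the retained-intron isoform with the highest mean TPM spans at least 1 whole intron of a coding transcript. In 4 of them, H2-Q7, Ncl, Plekhj1 and Tmem132a, it spans 2 or more. In the other 15 of the 31 it only begins or ends inside an intron. The isoform highest by mean was not the highest in each library in some genes, such as Ptp4a1, Sept2 and Anxa7. Over any of the retained-intron isoforms of the 31, 23 genes had at least 1 that spans a whole intron. In 14 such isoforms held over 50% of the retained-intron TPM in both libraries. Both counts were made for the 31 genes only. The 8 genes with none were Gm21188, Cers6, Slc7a11, Mpp7, Usp15, Rfc2, Zcrb1 and Ifi27. For these 8 the annotated isoforms hold intron sequence but no whole intron. Weighted by TPM in replicate 1, the intronic part of their retained-intron isoforms was 82.2% in Mpp7, 70.8% in Slc7a11, 64.7% in Gm21188 and 49.6% in Cers6, and the lowest was 19.0% in Ifi27. In the 2084 other coding genes at the same minimum with a retained-intron isoform, the highest one spans a whole intron in 622, or 29.8%. It spans 2 or more in 159, or 7.63%.

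The intronic part of these isoforms was often small. Its median was 32.0% of the isoform length in the 31 genes and 50.4% in the other genes, and it was under 100 bases in 6 of 31 and in 228 of 2084. The isoforms began inside an intron in 13 of 31 and ended inside one in 8 of 31, against 823 and 1148 of 2084. Their median length was 1587 nt, compared with 1188 nt in the other genes, and 17 of 31 were shorter than the median coding isoform of their gene. As a percent of that coding length the median was 76.4%, against 66.9% in the other genes. Sept2-213 and Mpp7-210 were the most intronic, with 89.3% and 87.9% of their bases. Usp15-208, Slc27a1-205, Prelid1-202 and Pirb-202 were the least, with 1.01%, 5.96%, 6.81% and 7.77%.

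**Figure D4:**
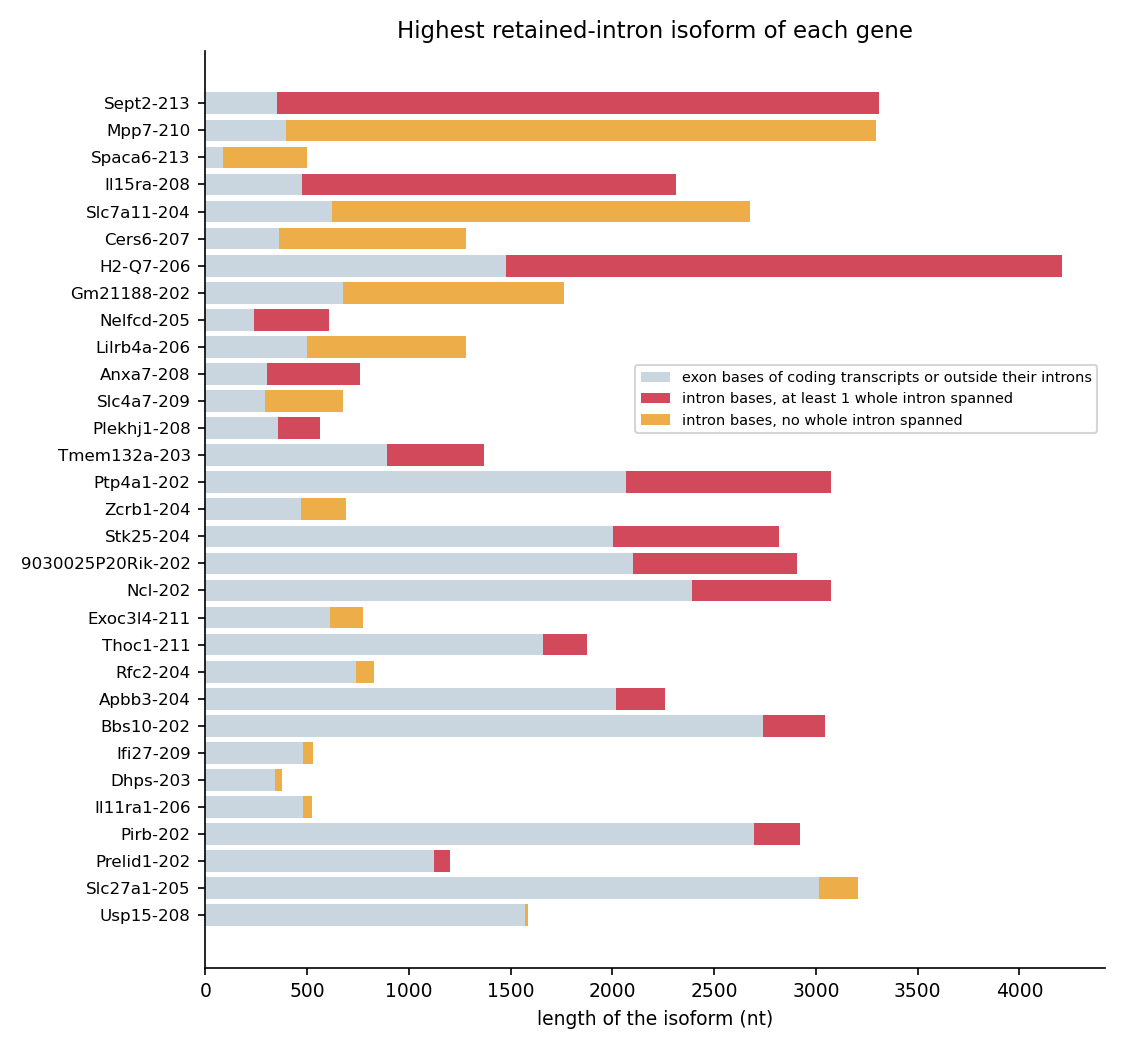
Length in nt of the highest retained-intron isoform of each gene, split into bases within introns of the coding transcripts (red where at least 1 whole intron is spanned, orange where none is) and the other bases (grey), ordered by intronic percent. The coloured part runs from 16 bases in Usp15-208 to 2957 bases in Sept2-213, and 16 of the 31 bars are red.

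The 22 whole introns inside the highest isoforms belonged to 16 genes and were shorter than the other introns of the 31 genes. Their median length was 348 nt, with quartiles of 192 and 472 nt, whereas the 366 other introns had a median of 991 nt. The 366 include introns of genes that gave no kept intron, so differences between genes also enter this contrast. The 898 introns whole inside the highest retained-intron isoform of the other genes had a median of 326 nt, close to that of the 31 genes. No minimum share was asked of that isoform in the other genes. The comparison with them is thus of annotated introns and not of measured retention. The longest of the 22 were an intron of H2-Q7 with 2082 nt, intron 2 of Il15ra with 1554 nt and the Ptp4a1 intron. The median GC content was 49.4%, against 49.9% in the other genes, and the range ran from 32.5% in Ncl to 64.7% in Plekhj1. The 5′ splice site matched the consensus at a median of 7 of 9 bases, compared with 6 in the other genes, from which the consensus was taken.

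GT and AG bounded 21 of the 22 introns and 884 of 898 in the other genes. None began with ATATCC or GTATCC, the starts typical of introns of the minor spliceosome, and 6 of the 898 did. Within the coding sequence lay 19 of the 22, with 1 in the 5′ and 2 in the 3′ untranslated region. In the other genes these were 822, 60 and 16 of 898. A stop in the frame of the upstream exon was present in 17 of the 19, or 89.5%, and in 734 of 822, or 89.3%, in the other genes. The length was a multiple of 3 in 6 of 22 and in 323 of 898. By position, 17 were internal, 3 last, 1 first and 1 the only intron of its transcript. In the other genes these were 697, 83, 113 and 5 of 898. In these features of length, composition and splice sites the introns of the 31 genes thus lay near the introns annotated as retained in the other genes. No test was made of any difference.

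**Figure D5:**
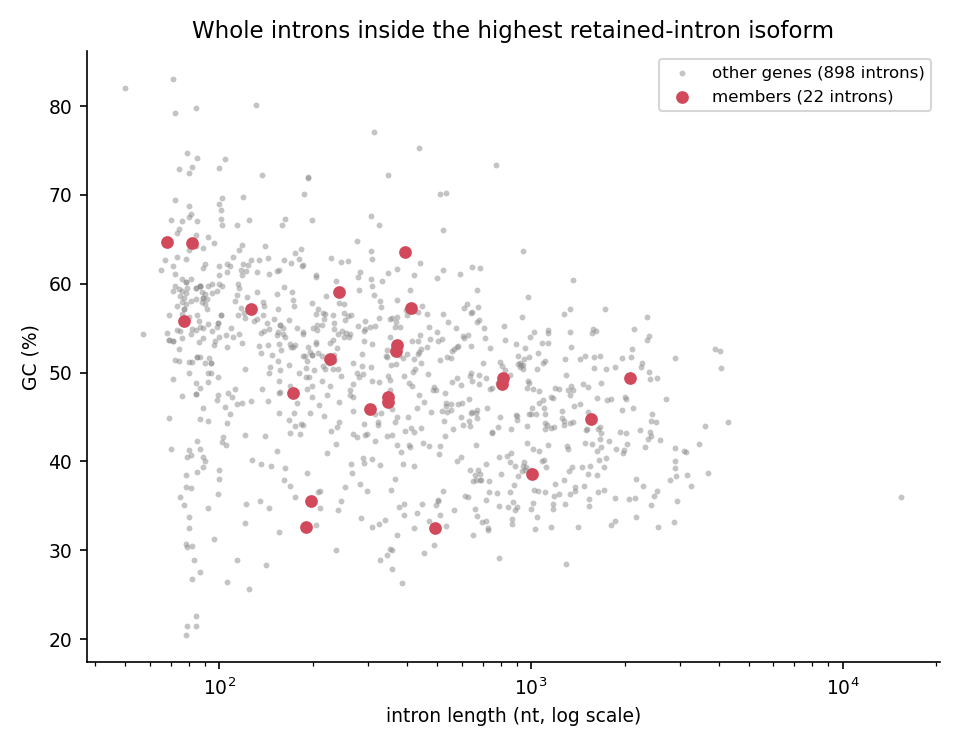
Length (log axis, nt) and GC content (%) of introns that lie whole inside the highest retained-intron isoform, for the 31 genes in red (22 introns of 16 genes) and for other coding genes in grey (898 introns). The red points spread through the grey cloud, from the Plekhj1 intron of 68 nt at 64.7% GC to the H2-Q7 intron of 2082 nt at 49.4%.

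Sequence shared with other loci limits several genes. At least 50% of the 31-base words of the highest isoform occurred in transcripts of another gene for 6 of the 31. These were Lilrb4a with 77.5%, Il11ra1 with 68.6%, Gm21188 with 66.5%, Ptp4a1 with 66.0%, 9030025P20Rik with 64.5% and Pirb with 56.9%. For Ptp4a1 the other gene is a second annotation entry of the same symbol that covers the whole isoform. H2-Q7 followed with 41.3%, of which H2-Q10 made up the largest part, and Prelid1 with 31.9%. In 18 genes under 1% was shared. Genes on the opposite strand overlapped the isoform in 10 of 31. The longest overlap was that of Lilrb4a with the antisense gene Gm40645, which covers all 1279 bases of Lilrb4a-206 and was at 2.21 and 1.39 TPM. The overlap was 561 bases for Exoc3l4 with the antisense gene Gm10425 and 405 for Thoc1 with Usp14. It was 225 bases for Tmem132a with Slc15a3, 180 for Gm21188 with Gm31544 and 169 for Stk25 with Gm28536, and 117 or less in the other 4 genes. The part of shared or overlapping sequence in these values was not tested. These counts were made for the 31 genes only, so it is not known how usual they are among other coding genes.

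Genes of RNA processing, chromatin and the lipid A response were counted beside the background of 11.6% of all 2928 genes at 50% or more. Among the 2118 genes with an annotated retained-intron isoform it was 16%. Of 38 spliceosome and splicing genes at 10 TPM or more, 34 had such an isoform. At least 50% in both libraries was reached by 13 of the 38, and at least 80% by 0. The 13 included Prpf39 with 77.5% and 74.4%, Snrnp70 with 76.1% and 68.2% and Rbm5 with 75.3% and 72.3%. Snrnp70 is a core protein of the particle that binds the 5′ splice site. The other lists held fewer genes at this share. Of 13 genes of mRNA export and nuclear RNA decay, all with such an isoform, 1 reached 50% and the same gene, Thoc1, reached 80%. Of 3 nonsense-mediated decay genes at this level, all with such an isoform, Smg9 reached 50%, with 66.2% and 74.7%. Of 30 chromatin and transcription genes, 23 had such an isoform. Of the 30, 4 reached 50%, among them Hdac1 with 72.7% and 76.7%, and 0 reached 80%. Of 39 lipid A response genes, only 18 had an annotated retained-intron isoform, and Dusp1 and Ccl5 were the 2 at 50% or more.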

How the data were processed

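RNA of 1 group with 2 libraries was described. The deposited transcript tables give expected counts and TPM, with posterior means and bounds, in RSEM column layout per the file headers. The TPM described here can lie outside these bounds. For Lilrb4a-206, at 1106 and 537 TPM, the bounds were 982 to 1023 in replicate 1 and 511 to 528 in replicate 2. A second deposited table gives estimated counts and TPM with kallisto column names. Per the authors' readme, the first came from transcript alignments and the second from reads, on mm10 with annotation M21. Programs, strand setting and the level of the bounds: not given in the sources used here. Gene classes, exons and transcript sequences came from GENCODE M21.

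For each coding gene the TPM of retained-intron isoforms was divided by that of all its isoforms. The members, gene lists and role groups were chosen with earlier results of these data known. All members could be named, and other genes by nearness to a threshold, except those named from the lists, chosen after their values were seen. A kept intron is an intron of a coding transcript, of at least 30 nt, wholly inside an exon of the retained-intron isoform with the highest mean TPM. This minimum was set after the data were seen, since H2-Q7 has a shorter annotation gap. No genome was used, so GC content is given for kept introns only. Shared sequence was measured in 31-base words. With 1 group and members selected on the readout, no test was run. Python 3.11.15, pandas 2.3.3 and numpy 2.4.6 were used, and the isoform and intron functions were checked on simulated data. Shares of counts have Wilson intervals at the 95% level, which cover counting error only, since PCR copies cannot be told from separate molecules here. The alternatives are in the closing section.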

Additional observations from a re-analysis of the deposited data

How the results depend on the processing

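The number of genes followed the thresholds. It was 31 as reported, 61 at a share of 70%, 7 at 90%, 43 at a minimum of 5 TPM, 16 at 20 TPM and 157 with no minimum. It was 22 when the share was taken in expected counts, of which 13 were among the 31, and 9 when share and level came from the second quantification, of which 7 were. With TPM rescaled over coding genes, which held 33.8% and 19.2% of all TPM, it was 57. With 1 library left out it ranged from 42 without replicate 1 to 53 without replicate 2. The share from posterior mean TPM, an alternative chosen after seeing the data, gave 27, all among the 31. The median share was 87.1% as a mean of the libraries and 82.3% in expected counts. It ranged from 84.7% to 89.8% with 1 library left out. The median level was 29.3 TPM, 104 when rescaled, 17.4 in the second quantification (29.3 in replicate 1 and 5.66 in replicate 2) and 20.5 to 33.0 with 1 library left out. The number of genes at 80% in the second quantification was 18, 5 at 90%, and 18 to 26 with 1 library left out. Median intron length stayed between 242 and 384 nt and median GC content between 49.0% and 49.4% under the 4 alternatives tried for each. No paired analysis was possible because there is 1 group and no test. Depth limits the genes of low counts, such as Dhps and Ifi27.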
